A study of Caenorhabditis elegans with 2 samples.

Results

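Of the 5501 peaks that chromatin immunoprecipitation of tagged MES-2 gave in the authors' thresholded list, 419 (7.62%) had their summit 1 to 500 bp downstream of a transcript start. They were chosen by position only. A peak was taken where its summit lay off the X chromosome, where the nearest annotated start of a protein-coding transcript was 1 to 500 bp upstream of it on that transcript's strand, and where it did not lie between the starts of 2 genes that head away from each other within 1000 bp. The material was whole Caenorhabditis elegans hermaphrodites of the L4 larval stage, the last before adulthood. All carried the strain OP248 transgene, which expresses MES-2 fused at its C terminus to GFP and FLAG. Sonicated chromatin was precipitated with an antibody against GFP, and the 2 samples are biological replicates 1 and 2 of this 1 group. Untagged worms and a sample of another antibody or stage were not analysed here, so enrichment that depends on MES-2 and enrichment that any such precipitation gives cannot be told apart.

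MES-2 corresponds to Enhancer of zeste of flies, the subunit of Polycomb repressive complex 2 that methylates histone H3 at lysine 27, a mark tied to gene silencing. With MES-3 and MES-6 it is needed in the maternal germ line for fertile offspring, and it helps to keep the X chromosomes silent there. In C. elegans the 5′ ends of many mRNAs are replaced by a trans-spliced leader, so an annotated start can be the splice site and not the place where transcription begins. Genes inside operons are transcribed from a promoter ahead of the first gene and usually lack one directly before them.

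The highest downstream peaks lay in introns and in the first exon, and some of them shared stretches of sequence. The 2 highest were in intron 3 of Y56A3A.7 and intron 1 of Y65A5A.2. The summit and 50 bp on either side are printed along the gene, from the RefSeq genome of WBcel235, the assembly that ce11 names (chrIII:11946503-11946603, minus strand, and chrIV:16415230-16415330, plus strand), with the longest stretch they have in common in capitals.
Y56A3A.7: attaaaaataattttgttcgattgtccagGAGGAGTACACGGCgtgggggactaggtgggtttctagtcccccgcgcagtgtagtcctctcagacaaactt
Y65A5A.2: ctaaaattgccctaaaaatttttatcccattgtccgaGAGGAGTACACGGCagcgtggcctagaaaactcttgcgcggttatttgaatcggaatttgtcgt
That stretch is 14 bases long. On either strand it occurs 33 times in the genome, and 21 of these places lie inside a thresholded peak. All thresholded peaks together cover 0.925% of the genome. The stretch was looked for after the peaks had been ranked, and the part of repeated sequence or of read mapping in these peaks was not tested.

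The highest downstream peak in a coding exon was that of R12C12.6, and its window shared a run with that of K07C5.13, the fourth highest of the coding-exon peaks. Capitals mark bases inside any 20-base stretch found within 100 bp of both summits (chrII:6047790-6047890, minus strand, and chrV:10342193-10342293, plus strand).
R12C12.6: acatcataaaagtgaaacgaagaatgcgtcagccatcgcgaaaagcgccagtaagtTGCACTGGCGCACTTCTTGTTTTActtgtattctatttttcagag
K07C5.13: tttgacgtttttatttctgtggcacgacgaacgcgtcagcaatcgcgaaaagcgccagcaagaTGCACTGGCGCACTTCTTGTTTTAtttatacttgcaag
The 20-base stretch counted for this pair was found 2 times in the genome. Both places are under the 2 peaks from which it was taken, so their lying inside a thresholded peak follows from the choice. A longer family joined F23B12.4 and lin-13, a zinc finger gene of the synMuv class. Their windows are shown with the bases shared with any other member of the family in capitals (chrV:14443646-14443746, plus strand, and chrIII:7708987-7709087, minus strand).
F23B12.4: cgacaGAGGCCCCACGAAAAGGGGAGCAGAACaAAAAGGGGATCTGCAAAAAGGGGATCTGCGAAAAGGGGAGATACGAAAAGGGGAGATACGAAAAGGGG
lin-13: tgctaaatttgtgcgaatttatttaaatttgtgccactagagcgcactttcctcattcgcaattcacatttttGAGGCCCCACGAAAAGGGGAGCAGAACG
The 20-base stretch counted for this family is not in the printed part of lin-13. It occurs 74 times in the genome, and 27 of these places (36.5%, exact 95% interval 25.6 to 48.5%) lie inside a thresholded peak. The stretch was taken from the family's own peaks, which are among these places, so the share is a description only. None of the 74 is within 100 bp of a small non-coding RNA gene. In a family of 5 peaks, 4 summits lay within 100 bp of a tRNA gene, among them that of txt-4, shown with the bases shared with other members of the family in capitals (chrIV:1514583-1514683, plus strand).
txt-4: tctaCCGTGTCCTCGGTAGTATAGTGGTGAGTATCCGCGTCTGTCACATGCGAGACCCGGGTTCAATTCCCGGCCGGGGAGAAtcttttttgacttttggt
In all, 7 such families took in 20 of the 419 peaks, and 3 families with 7 peaks lay entirely within 100 bp of small RNA genes.

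The motif that exceeded the surroundings most among the 8 searched was GAGAGA, or TCTCTC on the other strand. Shown with each match in capitals are 4 windows that hold it, chosen by signal among the peaks on chromosomes II to V that have the motif within 50 bp of the summit, no annotated UTR in that window, and no place among the 4 highest intron or coding-exon peaks with such a window: col-85, a collagen gene (chrII:12494686-12494786, minus strand), F40F11.3 (chrIV:11593518-11593618, minus strand), lgg-2, an autophagy gene of the LC3 family (chrIV:10935478-10935578, minus strand), and egl-27, which encodes an MTA-like chromatin regulator (chrII:6842734-6842834, plus strand).
col-85: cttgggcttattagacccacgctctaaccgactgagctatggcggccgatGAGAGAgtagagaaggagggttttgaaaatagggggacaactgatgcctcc
F40F11.3: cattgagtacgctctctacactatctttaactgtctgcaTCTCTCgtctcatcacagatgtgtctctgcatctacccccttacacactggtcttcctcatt
lgg-2: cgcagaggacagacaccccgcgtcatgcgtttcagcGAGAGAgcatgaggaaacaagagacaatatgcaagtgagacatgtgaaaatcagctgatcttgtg
egl-27: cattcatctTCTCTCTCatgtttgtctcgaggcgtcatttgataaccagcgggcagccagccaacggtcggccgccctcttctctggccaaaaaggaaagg
The col-85 summit lay within 100 bp of a tRNA gene, and the other 3 did not lie that close to any small RNA gene.

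The 419 peaks fell on 398 of the 17242 protein-coding genes off the X chromosome (2.31%). At 18 genes there was more than 1 such peak, and nurf-1 had the most with 5, all within 20 kb of the mes-2 gene. No start was shared by genes, and no interval was listed 2 times. The peaks made up 9.17% of all 4570 thresholded peaks off the X chromosome, and between 8.26% and 9.59% of those of each autosome. They were densest on chromosome III, with 24.8% of the peaks or 67.2 per Mb of eligible positions, meaning positions that meet the same rule. Chromosome V had the fewest, with 69 peaks or 24.0 per Mb. Chromosomes I, II and IV held 96, 76 and 74 peaks.

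Downstream peaks gathered towards the start. Their median distance was 148 bp (95% interval 133 to 167 bp), and 286 of them (68.3%, interval 63.6 to 72.7%) lay within 250 bp, where 51.8% of the eligible positions lie. Within 50 bp there were 100 peaks (23.9%, interval 19.9 to 28.2%, against 10.9% of eligible positions). Within 25 bp there were 66 (15.8%, interval 12.4 to 19.6%, against 5.52%). From 200 bp to 500 bp the count was nearly level, between 25 and 29 in each 50 bp. All intervals here are 95% intervals over peaks, exact Clopper-Pearson for shares and from order statistics for medians. They cover counting error only, and peaks are not replicates of the worms.

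**Figure D1:**
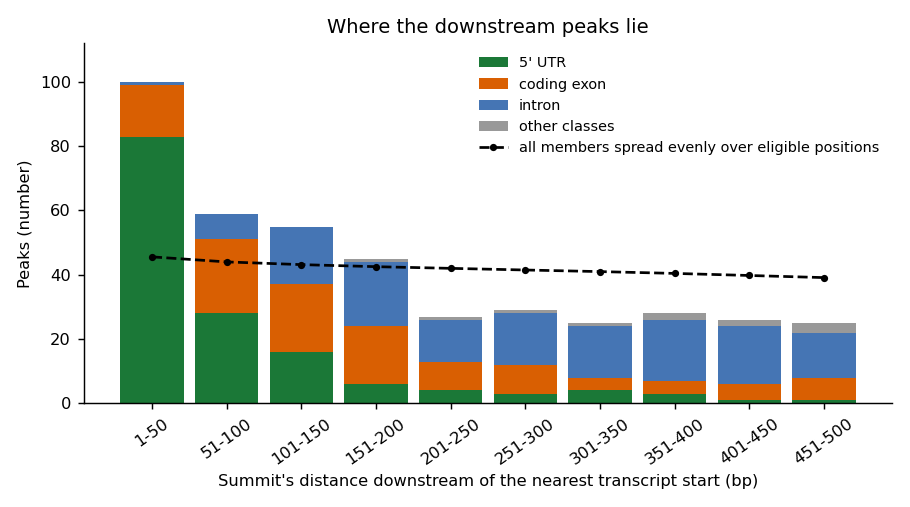
Number of downstream peaks in each 50 bp of distance from the nearest transcript start, coloured by the annotation at the summit, with a dashed line for 419 peaks spread evenly over the eligible positions. The first bar holds 100 peaks, 83 of them in 5' UTRs, and the bars past 200 bp hold 25 to 29.

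The 2 edges of the rule cut through the distribution without a gap. Just inside, 14 summits lay 1 to 5 bp downstream of the start, with a median signal of 156, and just outside, 11 lay 0 to 4 bp upstream, with a median of 114.9. At the far edge, 6 summits lay at 491 to 500 bp, with a median signal of 156, and 5 at 501 to 510 bp, with a median of 95.2. Signal is the authors' own height of a peak, on a scale that their lists do not tie to read depth, so it serves here to order peaks within each list.

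By the annotation at the summit, the peaks fell into 3 large classes. In 5' UTRs, the transcribed stretch before the coding sequence, there were 149 (35.6%, interval 30.97 to 40.4%), although only 10% of the eligible positions are 5' UTR. Introns held 143 (34.1%, interval 29.6 to 38.9%), near the 38.3% of eligible positions. Coding exons held 116 (27.7%, interval 23.5 to 32.2%), against 49.3% of eligible positions. Per Mb of eligible positions this came to 145 peaks in 5' UTRs, 36.5 in introns and 22.9 in coding exons. The remaining peaks were 5 intergenic ones, all past the end of a short transcript, 4 in 3' UTRs and 2 in non-coding genes. Measured along a transcript that begins at the nearest start, 226 summits were in exon 1 and 128 in intron 1, and 16 lay past the transcript's end.

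The classes differed in place and height. The 5' UTR peaks lay a median of 38 bp from the start, coding-exon peaks 148.5 bp and intron peaks 285 bp. Median signals were 135 (interval 122 to 154) in 5' UTRs, 110 (97.53 to 132) in introns and 92.6 (87.8 to 97.8) in coding exons. Of the coding-exon peaks 31.03% (interval 22.8 to 40.3%) were among the strongest regions of both replicates, of the intron peaks 53.1% (44.6 to 61.5%) and of the 5' UTR peaks 61.7% (53.4 to 69.6%). The strongest regions are the 5501 of highest signal in a replicate's own list of 30000, and overlap means at least 1 shared bp.

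**Figure D2:**
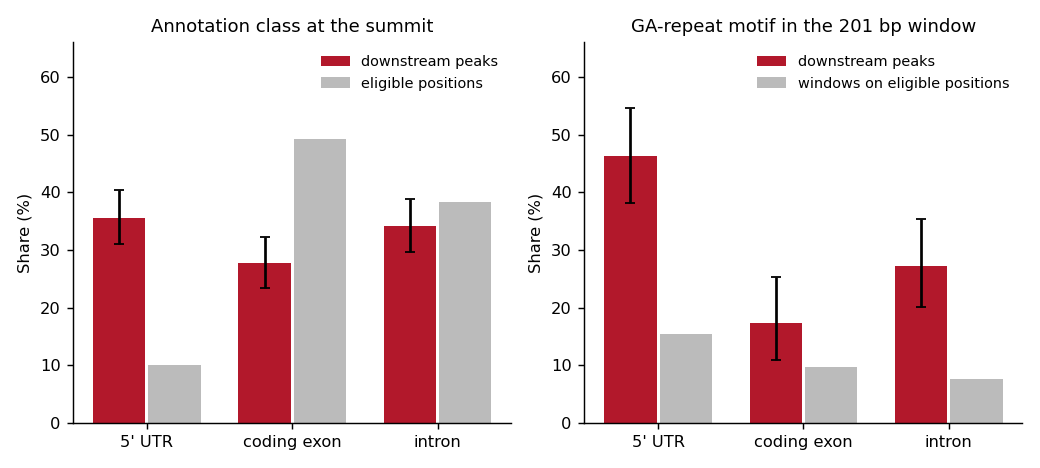
Left, share of the 419 downstream peaks and of the eligible positions in each annotation class. Right, share of windows, reaching 100 bp to either side, with the GA-repeat motif GAGAGA or its reverse complement, at the peaks of each class and at a grid of eligible positions of the same class; error bars are exact 95% intervals. The red bar exceeds the grey one for 5' UTRs (35.6% and 10%) and is lower for coding exons (27.7% and 49.3%).

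Set beside the other kinds of autosomal peak, downstream peaks were low. Their median signal was 108 (interval 101.4 to 113), with a range from 73.6 to 1669. The median was 169 for 1389 peaks 0 to 500 bp upstream of the start of 1 gene, 281 for 699 peaks between head-to-head starts, and 111 for 688 intronic peaks more than 500 bp from any start. In the order of these medians the downstream and intronic kinds have overlapping intervals, and the other kinds do not. The highest 25% of the whole list, above 249.9, took 13.4% of the downstream peaks (interval 10.3 to 17.0%), against 32.5% of the upstream, 55.4% of the head-to-head and 14.8% of the intronic peaks. In the lowest 25%, below 95.4, were 38.7% of the downstream peaks.

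Many of the lower peaks had the same width. Exactly 204 bp, the commonest width in the list, was the width of 208 downstream peaks (49.6%), against 24.8% of upstream, 9.16% of head-to-head and 47.7% of intronic peaks. Those 208 had a median signal of 87.7 and at most 169, and the other 211 a median of 172. Among coding-exon peaks 77.6% had this width. From the highest of the 208, at nhr-56 (169), through dpy-11 (153) down to lin-42 (110.4), the summit was the middle of the interval. For such peaks the distance, class and sequence window rest on that middle. How the caller set this width and these summits is not given in the sources used here.

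In both replicates' strongest regions were 211 of the 419 downstream peaks (50.4%, interval 45.5 to 55.2%), against 64.8% of all thresholded peaks, 73.1% of the upstream, 85.4% of the head-to-head and 54.8% of the intronic ones. At matched signal the shares were closer to each other. With all thresholded peaks split into 4 groups of nearly equal number by signal, 96.4% of the downstream peaks in the highest group were found in both (interval 87.7 to 99.6%), against 98.9% of all peaks. The next groups gave 94.4% against 92.9%, then 46.4% (interval 37.0 to 56.1%) against 55.7%, and in the lowest group 13.0% against 11.6%. With any region of a replicate's full list counted, 408 downstream peaks overlapped one of replicate 1, 406 one of replicate 2, and 396 both. Of all 5501 thresholded peaks, 5235 overlapped a region of both full lists, so nearly all peaks of any kind did.

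**Figure D3:**
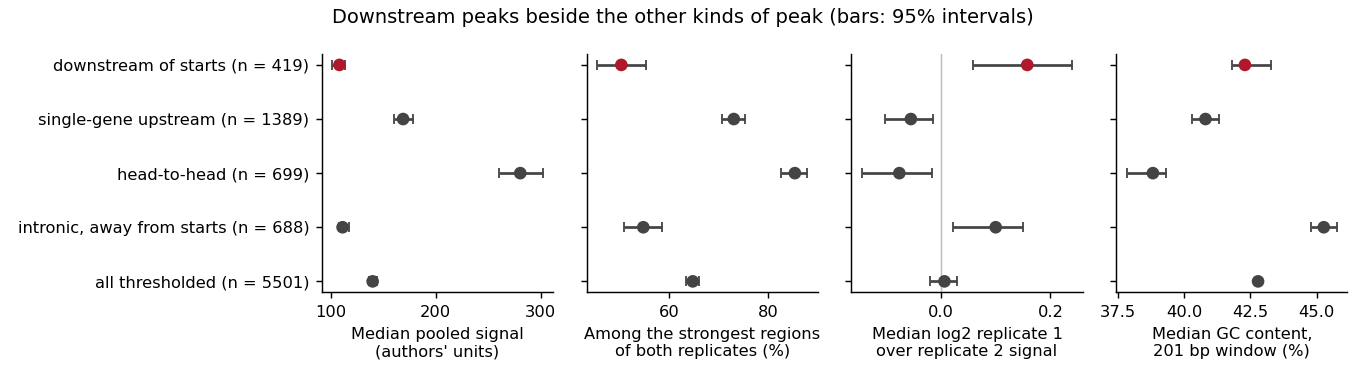
Medians or shares with 95% intervals for the downstream peaks (red) above 3 other kinds of autosomal peak and all thresholded peaks. Downstream peaks have a median signal of 108 and 50.4% of them are among the strongest regions of both replicates, near the values of the intronic peaks (111 and 54.8%).

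The signals of downstream peaks leaned towards replicate 1. At the 396 peaks seen in both lists, the log2 ratio of replicate 1 over replicate 2 signal had a median of 0.16 (interval 0.06 to 0.24), against −0.06 at upstream, −0.08 at head-to-head, 0.10 at intronic and 0.01 at all thresholded peaks. Within the downstream peaks the median ratio was 0.27 in coding exons, 0.19 in introns and 0.04 in 5' UTRs. At 165 other thresholded peaks in coding exons the median was 0.23. These lay outside the downstream set, wherever that was, and each ratio needs a region in both replicate lists. At 287 of the 396 peaks the replicates were within 1 log2 unit of each other, and single ratios ran from −2.41 to 2.49.

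**Figure D4:**
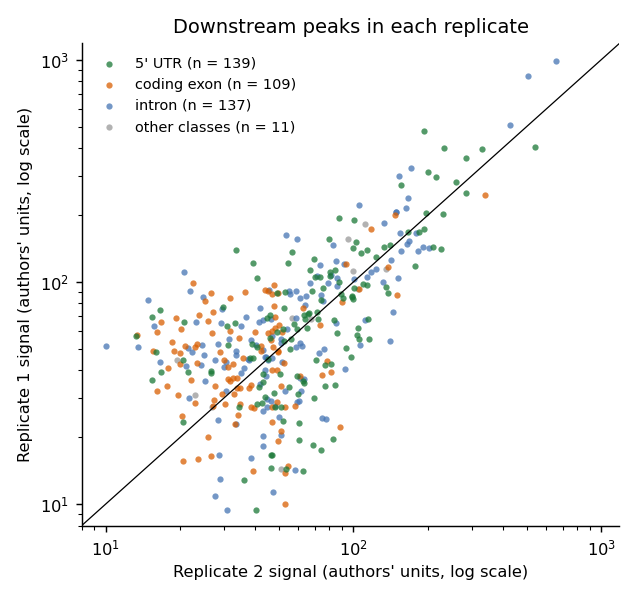
Signal in replicate 1 against replicate 2 for the 396 downstream peaks that overlap a region of both lists, coloured by annotation class, on log scales; the line marks equal signal. The points scatter widely below a signal of about 100 in each replicate, and the 3 peaks of highest replicate 1 signal are intron peaks.

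The position of a summit was itself measured with error. Between replicates the summit moved by a median of 26 bp, and by at most 50 bp in 76.5% of the 396 peaks seen in both. In replicate 1 the summit also met the rule at 371 of 408 peaks (90.9%), in replicate 2 at 374 of 406 (92.1%), in both at 336 of 396 (84.8%), and in neither at 8. For peaks within 25 bp of the start, which a small shift carries upstream, the rule held for the replicate 1 summit at 46 of 66 (69.7%) and for the replicate 2 summit at 48 of 63 (76.2%).

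The peaks nearest to the start were higher than the rest. Of the 66 within 25 bp, 60 were in 5' UTRs. Their median signal was 150 (interval 121 to 186), against 103.9 (97.7 to 109.9) for the 353 peaks at 26 to 500 bp, and 65.2% against 47.6% were among the strongest regions of both replicates. Their median GC content was 39.6%, against 42.8%.

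At some of these peaks a further start lay ahead of the summit. The counts of further starts and upstream summits given here have no share over eligible positions or other peaks beside them. At 105 peaks, 66 of the same gene and 39 of another gene, the summit also lay 0 to 500 bp upstream of a further start, which was not the nearest one. The 39 upstream of another gene had a median signal of 180 (interval 131 to 284), and 79.5% were among the strongest regions of both replicates. The 66 upstream of a later start of the same gene had a median of 126 and 57.6% in both. The 314 peaks with no start ahead (74.9%) had a median signal of 100.7 (interval 96.5 to 108), and 45.2% in both. At 55 peaks (13.1%, interval 10.04 to 16.7%) another thresholded summit lay 0 to 500 bp upstream of the same start, and 364 had none there. In a relaxed list of 17622 pooled regions, those with a deposited −log10 q of at least 2, which has more summits everywhere, this share was 34.5%, and among the 2750 strongest thresholded peaks 6.90%.

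A gene on the same strand ended within 500 bp before the start at 130 of the 419 peaks (31.03%, interval 26.6 to 35.7%), against 16.5% of the 23735 starts with eligible positions. Such tandem spacing is found in operons, but the annotation used does not mark them and operons were not looked up. These 130 peaks had a median signal of 98.2, against 113 for the other 289.

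Small non-coding RNA genes lay within 100 bp of 32 summits (7.64%, interval 5.28 to 10.6%), close to the 8.18% of all thresholded peaks and above the 0.297% of eligible positions. By kind of neighbour, 23 of these summits lay beside tRNA genes, 5 beside snoRNA genes, 3 beside snRNA genes and 1 beside a miRNA gene, and none beside an rRNA gene. Of the 32 summits 28 were in introns, which is 19.6% of the intron peaks. Their median signal was 204 (interval 123 to 271), against 105 (99.4 to 110.6) for the other 387 peaks, and 78.1% were among the strongest regions of both replicates, against 48.1%. The share depended on the list, with 15.2% among the 2750 strongest thresholded peaks and 2.27% in the relaxed list. The highest were in intron 1 of twk-5, a potassium channel gene, with a signal of 399, and in intron 1 of pdl-1, which encodes a prenyl-binding protein, with 366, both beside snoRNA genes.

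The sequence at the summits was richer in G and C than the surroundings and held more GA repeats. Median GC content within 100 bp of the summit was 42.3% (interval 41.8 to 43.3%), against 36.8% at a grid of eligible positions, 40.8% at upstream, 38.8% at head-to-head and 45.3% at intronic peaks. All thresholded peaks had a median of 42.8%, inside the interval of the downstream peaks. Class for class the peaks exceeded the grid: 42.3% against 36.8% in 5' UTRs, 42.8% against 38.8% in coding exons, and 42.3% against 33.8% in introns.

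GAGAGA or TCTCTC was present in 130 of 419 windows (31.03%, interval 26.6 to 35.7%), against 9.46% of the grid. That is below the 37.8% of all thresholded peaks, with 35.3% at upstream, 26.04% at head-to-head and 44.0% at intronic peaks. In 5' UTRs 46.3% of the peaks held it (interval 38.1 to 54.7%), against 15.3% of the 5' UTR grid. In introns the shares were 27.3% and 7.62%, and in coding exons 17.2% (interval 10.9 to 25.4%) and 9.64%. Read along the gene, 45 windows had only GAGAGA, 72 only TCTCTC and 13 both, and in 5' UTRs the counts were 19, 39 and 11. Of 277 matches, 176 (63.5%) were within 50 bp of the summit. Peaks with the motif had a median signal of 123, against 101.4 for those without, but the direction was not the same in every class. In 5' UTRs the medians were 132 with the motif (interval 118 to 153) and 152 without (114.7 to 180), in introns 107 with and 110.4 without, and in coding exons 104.9 with and 90.6 without. Within each class the intervals of the 2 medians overlap. Of the 25 highest downstream peaks 3 held the motif.

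The other motifs are given as the share of downstream windows, then of all thresholded peaks and of the grid. CCGCCC or its complement GGGCGG was in 9.07% (interval 6.50 to 12.2%), against 9.85% of all peaks and 2.89% of the grid. TGATAA or TTATCA was in 21.7% (interval 17.86 to 25.98%), against 17.3% and 17.9%. CACGTG was in 5.73% (interval 3.70 to 8.40%), against 5.94% and 3.76%, and GTAAACA or TGTTTAC in 2.86% (interval 1.49 to 4.95%), against 4.13% and 1.75%. For both of these the interval holds the share of all peaks and that of the grid. TTTCAG or CTGAAA, the letters of the usual worm 3′ splice site, was in 25.5% (interval 21.4 to 29.996%), above the 18.9% of all peaks and below the 40.7% of the grid. TATAAA or TTTATA was in 14.1% (interval 10.9 to 17.8%), against 13.1% of all peaks and 20.2% of the grid. TTTTTTTT or AAAAAAAA was in 10.7% (interval 7.94 to 14.1%), against 14.1% of all peaks and 17.8% of the grid. Both strands were searched, overlapping matches count once per window, and a match is a description of the letters only.

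Among the 25 highest downstream peaks 16 were in 5' UTRs, 8 in introns and 1 in a coding exon, and all 25 were among the strongest regions of both replicates. The summit lay within 25 bp of the start at 11 of them. At 8 it lay upstream of another gene's start as well, and at 6 upstream of another start of the same gene. Replicate 1 gave the higher signal at 16 and replicate 2 at 9, with log2 ratios from −0.69 to 1.31. Both replicate summits met the position rule at 21 of the 25. Replicate signals are on their own scales and were lower than the pooled signal at each of the 25.

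The intron peak of Y56A3A.7, 464 bp from the start, had a pooled signal of 1669, with 986 in replicate 1 and 658 in replicate 2, and ranked 25 in both replicate lists. That of Y65A5A.2, 440 bp from the start, had 1349 pooled, 849 in replicate 1 and 508 in replicate 2, at ranks 46 and 74. Both genes are named only by their place on the clone map. The spd-5 gene, which encodes a scaffold protein of the centrosome, had an intron peak 226 bp from its start, with 937 pooled, 507 in replicate 1 and 429 in replicate 2. Its summit was also upstream of npp-6, a nuclear pore gene. This peak, too, belongs to the sequence family of F23B12.4 and lin-13.

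The third highest was the 5' UTR peak of ints-4, a subunit of the Integrator complex that processes small nuclear RNAs. It lay 57 bp from the start with 977 pooled, 403 in replicate 1 and 538 in replicate 2. That of exo-1, a DNA exonuclease, lay at 119 bp with 724 pooled, 395 in replicate 1 and 330 in replicate 2. The agt-2 gene, which encodes an alkylguanine DNA alkyltransferase, had a peak at 384 bp with 547 pooled, 280 in replicate 1 and 260 in replicate 2. The replicates were within 0.42 log2 units of each other at all 3. The peak of polq-1, DNA polymerase theta, had 429 pooled, 272 in replicate 1 and 156 in replicate 2, and its summit was 120 bp upstream of the kinetochore gene him-10.

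The lin-45 gene encodes the Raf kinase of the Ras pathway. Its peak lay 24 bp from one start and 79 bp upstream of another start of lin-45, with 670 pooled, 476 in replicate 1 and 192 in replicate 2. The log2 ratio of 1.31 made it the most uneven of the 25. The use-1 peak, at a SNARE gene of the endoplasmic reticulum, lay 1 bp inside the gene and 157 bp upstream of the proteasome gene pas-3, with 635 pooled, 360 in replicate 1 and 284 in replicate 2, and the replicate 2 summit fell between the head-to-head starts. R12C12.6 had the only coding-exon peak of the 25, at 27 bp, with 609 pooled, 247 in replicate 1 and 339 in replicate 2, and 269 bp upstream of ran-5.

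The mitochondrial tyrosyl-tRNA synthetase gene yars-2 had 528 pooled, 312 in replicate 1 and 200 in replicate 2. The elongation factor gene eef-1B.1 had 519 pooled, 252 in replicate 1 and 286 in replicate 2, and its summit was also 340 bp upstream of aco-2, the aconitase gene. Its replicate 1 summit fell between head-to-head starts. The ESCRT-III gene vps-20 had 499.8 pooled, 295 in replicate 1 and 215 in replicate 2, with eif-4A3 468 bp ahead. The lysine acetyltransferase gene pcaf-1 had 471 pooled, 203 in replicate 1 and 231 in replicate 2, and the replicate 1 summit fell upstream of its start. The remaining peaks of the 25, at B0285.3, K08A2.2, Y39A1C.1, K04F10.7, twk-5, ccch-3, pdl-1, the SNARE gene nbet-1, C18D11.3, the hnRNP gene hrpu-1 and the mitochondrial ribosomal protein gene mrpl-47, had pooled signals from 360 to 624. At twk-5 the replicate 2 summit lay in an intron more than 500 bp from any start.

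**Figure D5:**
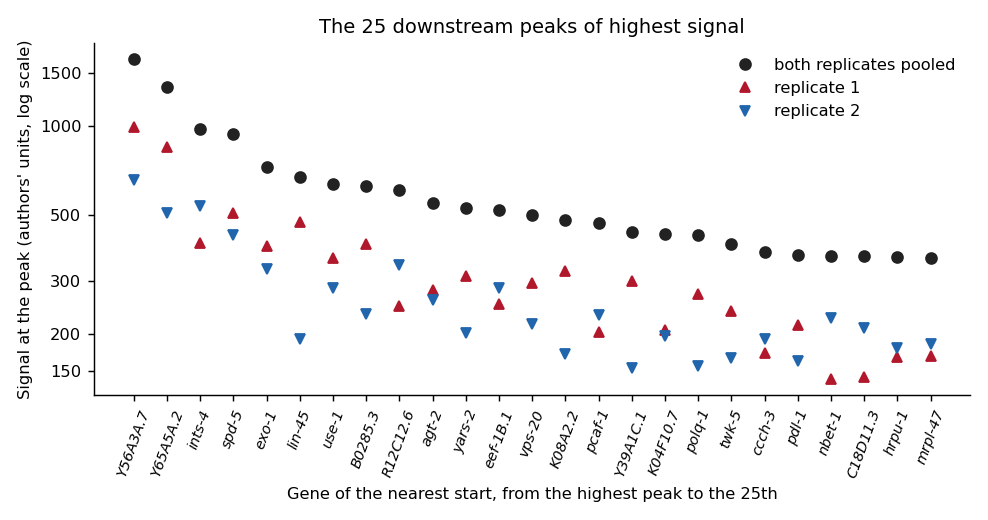
Pooled, replicate 1 and replicate 2 signal of the 25 highest downstream peaks, on a log axis, in order of pooled signal. The first 2 peaks, at Y56A3A.7 and Y65A5A.2, reach 1669 and 1349, and lin-45 has the widest gap between replicates.

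By function, downstream peaks were found at few genes of any list, beside a background of 2.31% of protein-coding genes. Matched by symbol, 7 of the 93 genes listed as small GTPases and vesicle traffic had one (7.53%). Within that list the highest were vps-20 and sec-61.A, the translocon channel (153 and 100.6, at 2 peaks). The lower sec-61.A peak was seen in replicate 2 only. The symbol lists are not complete. This one leaves out the SNARE genes use-1 (635) and nbet-1 (366), both with higher peaks than sec-61.A. Of 126 developmental transcription factors outside the homeobox and nuclear receptor families 9 had one (7.14%), led by the zinc finger gene ztf-3 (216) and egl-27 (211 and 81.5). Of 70 translation factors and aminoacyl-tRNA synthetases 4 had one (5.71%). Wnt, Notch, EGF and TGF-beta signalling had 4 of 79 (5.06%), led by lin-45 and by lit-1, a Nemo-like kinase (85.9). No set test was made, so none of these shares is called different from the background.

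Of the 108 genes listed as chromatin regulators 5 had one (4.63%). Within that list the highest were swsn-9, a SWI/SNF subunit (281), and nurf-1 (167), which lies near mes-2. The list leaves out the acetyltransferase gene pcaf-1 (471), and egl-27 (211) is counted with the developmental transcription factors. Homeobox genes had 3 of 65 (4.62%), led by duxl-1 (225) and ceh-43, a Distal-less relative whose peak lay beside a tRNA gene (80.7). Nuclear hormone receptors had 7 of 247 (2.83%), led by nhr-56 (169) and nhr-41 (159). Collagens and cuticle genes had 6 of 193 (3.11%), led by col-85 (328) and col-54 (200.8), both in intron 2 and beside tRNA genes.

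Cytoplasmic ribosomal proteins had 3 of 79 (3.80%), led by rpl-41.2 (97.3), past the end of its short transcript, and rps-16 (91.9). Chaperones had 3 of 85 (3.53%), led by the cyclophilin gene cyn-2 (113) and hsp-75 (83.4, seen in replicate 2 only). Ubiquitin conjugation had 2 of 62 (3.23%), the cullin gene cul-2 (130) and the hydrolase gene ubh-1 (95.1). Metabolic enzymes had 8 of 275 (2.91%), led by fum-1, fumarase (155), and ech-1.2, an enoyl-CoA hydratase (146). Mitochondrial ribosomal proteins had only mrpl-47 of 70, and the list of kinases and phosphatases, which as matched by symbol leaves out kinase genes such as lin-45 and lit-1, only kin-14 of 84 (178).

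Neuronal genes had 5 of 208 (2.40%), led by twk-5 and by egl-30, the Gq alpha subunit (232). Intestinal genes had 2 (1.98%), the saposin-like gene spp-1 (98.0) and the desaturase gene fat-6 (79.8). Germ-line genes had 2 of 109, glh-1, a Vasa-like helicase (89.6), and fem-3, which promotes male development (83.4). Sperm genes had spe-9 alone of 95 (74.2), and neuropeptides nlp-24 alone of 107 (83.7). C-type lectins had 2 of 237, clec-62 (91.4) and clec-196 (74.3), and the F-box, MATH and BTB families 2 of 399, bath-39 (148) and fbxc-54 (111). None was found at 1331 chemoreceptor, 78 histone, 77 splicing, 44 muscle, 39 respiration and 33 proteasome genes. Every value in these lists is the pooled signal of a peak. Several of the lowest ranked far down in 1 replicate's own list. In replicate 1 the peak of fat-6 ranked 26076 and that of spe-9 16125. In replicate 2 the peak of clec-196 ranked 21195 and that of rps-16 16431.

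The gene region of mes-2 (chromosome II, 14383973 to 14388454) is where the gene fused to the tag in the transgene comes from. Within 20 kb of it lay 6 downstream peaks of 18 thresholded peaks, where 9.17% of all thresholded peaks off the X chromosome are downstream peaks. At nurf-1, whose product belongs to a nucleosome remodelling complex and whose transcripts have several internal starts, 5 peaks had pooled signals of 167, 122, 103.9, 89.6 and 82.6. Their log2 ratios of replicate 1 over replicate 2 were −0.19, 0.85, 0.92, 2.18 and 1.60. The other, at F26H11.8, had 94.3 and a log2 ratio of 0.39. No downstream peak lay at mes-2 itself. How far the transgene reaches, and in how many copies, is not given in the sources used here. Its part in these 6 peaks was not tested.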

How the data were processed

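The 2 samples were analysed as replicates of 1 group. Per the submitters' file lists, the authors deposited narrowPeak lists per replicate, from pooled alignments, and thresholded by irreproducible discovery rate. Which aligner, caller and threshold were used is not given in the sources used here. Each peak has 1 value in the authors' signal column, and their deposited −log10 q column (as the layout defines it) was used only for a relaxed list. Depth is unknown. The ce11 lists were used, and those on ce10 were not used here.

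Summits were placed with Python 3.11.15, numpy 2.4.6, pandas 2.3.3 and scipy 1.17.1 against the Ensembl release 115 annotation and RefSeq genome of WBcel235, whose lengths hold every peak. Placement was tested on simulated data. A summit in several classes was given to the 5' UTR first, then to coding exon, 3' UTR and intron in turn, and to a non-coding gene or intergenic space last. Windows of 100 bp on either side of the summit gave GC content and 8 motifs, beside a grid of every 25th eligible position. The 27 gene lists were matched by symbol and leave out some genes of the functions they are named for. Shares have exact Clopper-Pearson 95% intervals and medians order-statistic intervals. With 1 group no test was made. Genes named are those of the 25 highest peaks, the 2 highest of each list, those within 20 kb of mes-2, and those whose windows are printed or share a sequence family, the last chosen after the sequences were seen. The members, lists and motifs were chosen with earlier results of these data known.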

Additional observations from a re-analysis of the deposited data

How the results depend on the processing

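Of 100 recomputed values, 72 stayed within 1.5 times a count or within the 95% interval of a share or median, and 28 did not. No paired analysis was possible because there is only 1 group of samples. With each replicate's own strongest regions in place of the pooled list, the number of downstream peaks was 396 to 455, the share within 250 bp 64.4 to 71.7%, in introns 29.5 to 35.6%, with an upstream peak 11.9 to 14.5%, near small RNA genes 6.57 to 7.03%, with GAGAGA 24.8 to 31.6%, the height rank (the percent of all peaks below the median downstream peak) 35.2 to 36.4%, the GC content 42.3 to 42.8% and the genes 386 to 431. A 250 bp limit gave 20.98% in introns and 9.09% with an upstream peak, and a 1000 bp limit 41.1% and 18.8%. With the most 5′ start of each gene alone, the height rank was 40.6%, 57.0% were found in both replicates and 4.95% lay near small RNA genes. The 2750 strongest peaks held 145 downstream peaks at 144 genes, with 95.2% in both replicates, 6.90% with an upstream peak, 15.2% near small RNA genes and 35.9% with GAGAGA. The relaxed list of 17622 regions held 2068, with 62.2% within 250 bp, 26.9% in introns, a height rank of 43.4%, 34.5% with an upstream peak and 2.27% near small RNA genes. Requiring overlap of 50% of both intervals left 35.1% in both replicates. Windows of 50 and 200 bp on either side of the summit gave GC contents of 46.5 and 38.9%, and that of 50 bp gave 23.2% with GAGAGA. Without summits ahead of another start, 61.1% lay within 250 bp, the height rank was 29.1% and 45.2% were in both replicates. That alternative, the one that keeps summits meeting the rule in both replicates, and those for GAGAGA and gene counts were chosen after seeing the data. The cause of these shifts was not tested.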

Other observations

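On the X chromosome, which the positional rule leaves out, 46 of 931 thresholded peaks (4.94%) met the same limits of distance and direction, with a median signal of 109, and so did 9.17% of the 4570 peaks on the autosomes, with a median signal of 108. The shares were not tested.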
